A study of Homo sapiens with 16 samples.

Results

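Chromosome 6 carries the largest group of transfer RNA (tRNA) genes of any chromosome in the RefSeq hg38 gene table used here. The genes were taken as every entry on chromosome 6 with the biotype tRNA, which gave 155 of 59788 genes. The entry of 1 of them, TRA-CGC5-1, stands out of coordinate order in the table and seems to belong to an alternate or unplaced sequence, so 154 genes were used. They were set against genome-wide peaks of 2 chromatin proteins, HDGF and INTS13, mapped by chromatin immunoprecipitation and sequencing (ChIP-seq) in HEK293T, a widely used line of human embryonic kidney origin. A tRNA gene was counted as having a peak where a peak summit lay within 1 kb of the gene on either side. The table gives no strand, so a side is named only as the lower or the higher coordinate.

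The 16 samples were wild-type HEK293T cells in 8 groups of 2 labelled replicates, read as 150 bp paired ends. HDGF was precipitated from cells deprived of glucose for 24 h and from cells given a control depletion, with a Proteintech antibody in both groups. INTS13 was precipitated from cells in which siPOOLs, pools of small interfering RNAs, had depleted HDGF for 72 h. It was also precipitated from cells deprived of glucose for 24 h, and from cells given the control depletion. For INTS13, a Bethyl Laboratories antibody served the depletion and control groups, but starved cells were probed with a Proteintech one. For INTS13 in starvation, the change of antibody therefore cannot be told apart from the lack of glucose. In the HDGF and INTS13 starvation comparisons alike, the labels name a control depletion for the control cells only. The remaining 6 samples were inputs and were not analysed here. Each ChIP group has 1 deposited peak list and no value per replicate, so no difference between lists could be set against replicate error, and no p-value is given. Intervals are exact 95% intervals that cover counting error only.

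RNA polymerase III transcribes tRNA genes from promoters that lie inside the gene. The A and B boxes of these promoters are bound by the factor TFIIIC, which places TFIIIB upstream of the start, and TFIIIB recruits the polymerase. On chromosome 6 most tRNA genes lie in the extended major histocompatibility region, among replication-dependent histone genes. INTS13 is a subunit of Integrator, a complex that cleaves nascent small nuclear RNAs made by RNA polymerase II and ends transcription at many genes. HDGF is a chromatin protein with a PWWP domain, a fold that reads methylated histone H3.

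The 154 genes were short and crowded. They were 71 to 108 bp long and formed 127 loci once overlapping 1 kb windows were joined. Of the 154 genes, 144 lay between positions 26286526 and 28989083, with 44, 56 and 44 genes in the megabases starting at 26, 27 and 28 Mb. A further 6 lay at 57 Mb, where none had a peak in any of the 5 lists. The other 4 genes stood alone elsewhere on the chromosome. Most were far from protein-coding genes, with 145 of 154 more than 5 kb from one. Many are near-identical copies, to which short reads may not be assignable, and 65 genes shared their RefSeq name, apart from the copy number, with another tRNA gene on this or another chromosome. A peak was found at 8 of these 65 genes and at 11 of the 83 genes with a name of their own. The remaining 6 genes had no copy number in their name and no peak.

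Peaks were few at the tRNA genes of chromosome 6 and rested on low summits. With INTS13 after HDGF depletion, 6 of 154 genes had a peak, or 3.9% (interval 1.44 to 8.29%), against 9.66% of 6540 other genes of at most 200 bp, which serve as background here. With INTS13 in starved cells 1 gene had a peak, 0.649% (0.0164 to 3.56%), against a background of 1.36%. With INTS13 in control cells 0 of 154 genes had a peak, which allows a share of up to 1.95%, against a background of 3.3%. With HDGF in starved cells 1 gene had a peak, 0.649% (0.0164 to 3.56%), against a background of 8.58%. With HDGF in control cells 15 genes had a peak, 9.74% (5.55 to 15.6%), against a background of 11.6%. The share at tRNA genes was thus below the background in every list. The background lay inside the interval for HDGF control and INTS13 starvation, and above the interval for HDGF starvation, INTS13 after HDGF depletion and INTS13 control. The upper bound of that last interval was 2.37%.

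Over the 5 lists 135 of 154 genes had no peak at all. A peak was present in 1 list at 16 genes, in 2 lists at 2 genes and in 3 lists at 1 gene, and no gene had one in 4 or 5 lists. No gene had an INTS13 peak in all 3 INTS13 lists. A gap in the list does not show that a protein was absent, because the lists hold only sites that passed the authors' threshold. The lowest fold enrichment that passed was 2.5 for INTS13 after HDGF depletion and 2.43 in both other INTS13 lists, and for HDGF it was 2.27 in starvation and 2.21 in control.

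The lists differed in length and in how much of them lay on chromosome 6, which bears on every count above. They held 105994 peaks for INTS13 after HDGF depletion, 15639 for INTS13 in starvation and 31233 for INTS13 control, and 68138 for HDGF in starvation against 106674 for HDGF control. Chromosome 6 took 5.62% of peaks for INTS13 after HDGF depletion, 1.66% in starvation and 1.69% in control. It took 3.28% of HDGF peaks in starvation against 6.73% in control. The chromosome share was thus high in the same lists that had most tRNA genes with a peak, and its part in those counts is removed only by the density within chromosome bins given below. Copy number of this chromosome in the cell line was not tested. Each fold in a list went with a single p-value, so no local background entered the folds.

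Most peaks missed the genes themselves. Of the 16 HDGF summits near tRNA genes in control cells, 10 lay more than 500 bp away, and the median distance was 600 bp. The 7 INTS13 summits after HDGF depletion lay at a median of 714 bp. Of the 25 peaks in the 5 lists 1 covered bases of a tRNA gene, and that peak belonged to TRV-AAC4-1, described below. HDGF peaks in control cells had folds from 2.34 to 3.25 with a median of 2.79, against a median of 2.86 over the whole list. INTS13 peaks after HDGF depletion had folds from 2.69 to 3.46 with a median of 3.08, against 3.27 over the whole list. The highest −log10 q at a tRNA gene was 4.24 for HDGF in control cells, where the list reached 534, and 3.21 for INTS13 after HDGF depletion, where the list reached 614.

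**Figure D1:**
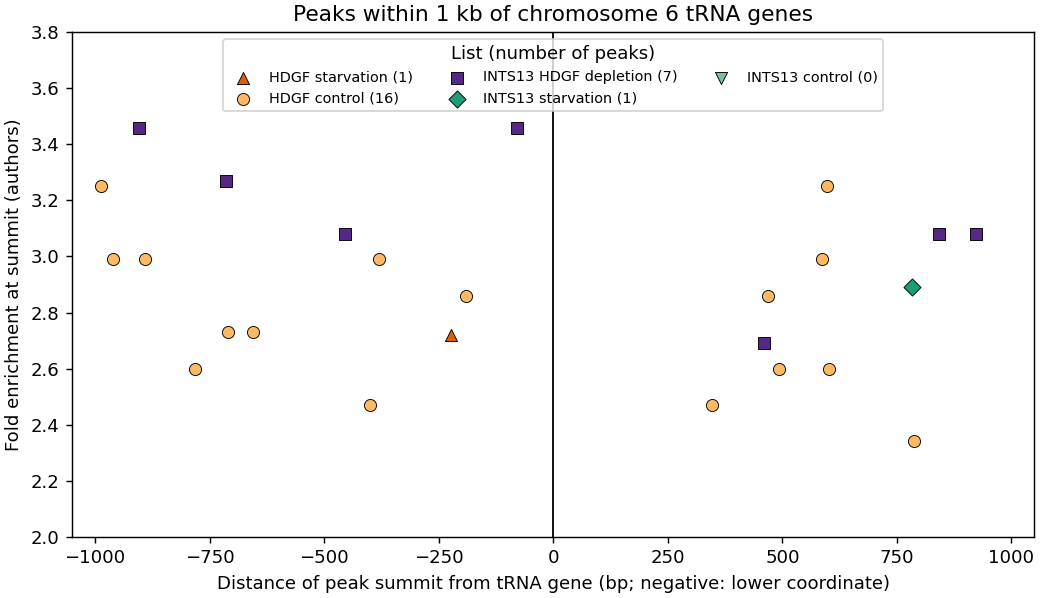
Each point is a peak with its summit within 1 kb of a tRNA gene of chromosome 6, with the distance from the nearer end of the gene in bp on the x axis (negative at the lower coordinate) and the authors' fold enrichment at the summit on the y axis. All folds lie between 2.34 and 3.46 and no point lies inside a gene; the INTS13 control list has 0 points.

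A small set of leucine and arginine tRNA genes had both proteins within 1 kb, HDGF in control cells and INTS13 after HDGF depletion. They made up 3 of the 6 genes with INTS13 after HDGF depletion and 3 of the 15 genes with HDGF in control cells. These are shares of 50% and 20%, beside 38.8% and 32.4% among the other genes of at most 200 bp, where 245 genes had both, and 24.2% and 19% among those on chromosome 6. TRL-TAA1-1, a tRNA-Leu gene at chr6:144216547-144216629 that lies apart from the main cluster and 24608 bp from STX11, was the gene with peaks in 3 lists. Its INTS13 peak after HDGF depletion had a fold of 3.08 with 15 reads at a summit 923 bp to the higher side, and INTS13 had no peak there in starvation or in control. Its HDGF peak had a fold of 2.72 with 29 reads in starvation and 3.25 with 24 reads in control. The 2 HDGF summits lay 222 bp and 987 bp to the lower side in starvation and control, 765 bp apart and in peaks that shared no base. The gene therefore counts as kept between the HDGF lists although no position was. Its INTS13 peak after HDGF depletion shared no base with its HDGF peak in control cells, and their summits lay 1992 bp apart.

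TRL-CAA2-1, a tRNA-Leu gene at chr6:27605638-27605745, had an INTS13 peak after HDGF depletion with a fold of 2.69, 13 reads and a summit 461 bp to the higher side. HDGF in control cells had a peak on each side of the same gene. On the higher side its fold was 3.25 at 597 bp, and on the lower side 2.99 at 961 bp. The INTS13 peak and the HDGF peak on the higher side overlapped by 123 bp, with summits 136 bp apart. TRR-ACG1-2, a tRNA-Arg gene at chr6:26537498-26537570, had an INTS13 peak after HDGF depletion with a fold of 3.08, 15 reads and a summit 455 bp to the lower side. Its HDGF peak in control cells had a fold of 2.99 with 22 reads and a summit 891 bp to the lower side, and the peaks overlapped by 50 bp. This gene lies 796 bp from the coding gene HMGN4, so the peaks may belong to either. TRL-CAA2-1 and TRR-ACG1-2 had no peak in the INTS13 starvation, INTS13 control or HDGF starvation lists.

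After HDGF depletion, 6 tRNA genes had an INTS13 peak, against 0 in control cells, so 6 were gained and none could be lost. The share among other genes of at most 200 bp was also higher, at 9.66% after depletion and 3.3% in control. The bin density gave 7.72 peaks at the tRNA genes after depletion and 0.372 in control, so the gain was not particular to them. TRV-AAC4-1, a tRNA-Val gene at chr6:27681106-27681178, held the only peak over a gene of the set. That peak ran over chr6:27680937-27681439 and covered all 73 bases of the gene, with a fold of 3.46, 17 reads and a summit 79 bp to the lower side. A further INTS13 peak lay 714 bp to the lower side of the same gene, with a fold of 3.27 and 16 reads. TRV-AAC4-1 had no peak in the other 4 lists. TRS-GCT5-1, a tRNA-Ser gene at chr6:28213037-28213118, had an INTS13 peak of fold 3.46 with 17 reads, 904 bp to the lower side. TRT-AGT2-2, a tRNA-Thr gene at chr6:27684695-27684768, had an INTS13 peak of fold 3.08 with 15 reads, 841 bp to the higher side. Neither had a peak in another list. A summit of 13 to 17 reads stood over a mean background of 4.2 reads in this list, against a background of 6.4 reads in control, where the same fold needs more reads.

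In starved cells INTS13 had a peak at 1 tRNA gene, against 0 in control cells. This was TRL-CAG1-7, a tRNA-Leu gene at chr6:26521208-26521290, with a fold of 2.89, 48 reads and a summit 782 bp to the higher side. Its peak, chr6:26521681-26522358, did not reach the gene. The mean background of this list was 15.2 reads. In HDGF control cells the nearest summit to TRL-CAG1-7 lay 1035 bp away, just outside the 1 kb limit, with a fold of 2.99. No other list had a peak within the limit.

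For HDGF, 1 tRNA gene had a peak in starved cells against 15 in control cells. TRL-TAA1-1 was the gene kept, 14 were lost and none was gained, which is a kept share of 6.67% (interval 0.169 to 31.9%). Of the other genes of at most 200 bp with HDGF in control cells, 245 of 757, or 32.4%, had a peak in starved cells, and on chromosome 6 alone 8 of 42, or 19%. The chromosome 6 share lies inside the interval at tRNA genes, and the genome-wide share lies just above it. TRQ-CTG5-1, a tRNA-Gln gene at chr6:27295433-27295504, had a control fold of 2.99 with 22 reads, 380 bp to the lower side, and no peak in starvation. TRS-TGA2-1, a tRNA-Ser gene at chr6:27545689-27545770, had a control fold of 2.99 with 22 reads, 587 bp to the higher side, and likewise no peak in starvation. The other 10 genes with HDGF in control cells had folds of 2.34 to 2.86 and 17 to 21 reads, and none of them had a peak in any other list. The loss was not limited to tRNA genes. Between 26 and 29 Mb there were 18 HDGF peaks of any location in starved cells against 107 in control cells. That region held 0.805% of the HDGF peaks of chromosome 6 in starvation and 1.49% in control. Of the peaks in the region, 0 of 18 in starved cells and 15 of 107 in control cells lay at tRNA genes. The share was 14% in control (interval 8.06 to 22.1%), and the interval in starved cells reached 18.5%. The tRNA windows took up 9.1% of the region, which lies inside both intervals. With 18 peaks in the region in starved cells, a loss particular to tRNA genes was not detectable.

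The cluster was not uniform in its HDGF peaks. In control cells 7 of 44 genes had a peak in the megabase starting at 26 Mb and 7 of 56 in the next, but 0 of 44 in the megabase starting at 28 Mb. INTS13 after HDGF depletion was at 1, 3 and 1 genes of the same 3 stretches. By amino acid, 3 of 4 tRNA-Tyr genes had an HDGF peak in control cells, where 15 of all 154 genes had one. These 3 lay together between positions 26575570 and 26594962, with folds of 2.47, 2.47 and 2.86. A peak in any list was found at 19 of all 154 genes. It was found at 1 of 30 tRNA-Ala, 4 of 17 tRNA-Ser, 3 of 11 tRNA-Gln and 3 of 11 tRNA-Leu genes. None of 15 tRNA-Ile, 8 tRNA-Met, 6 tRNA-Lys or 6 tRNA-Phe genes had a peak in any list, and 1 of 6 initiator tRNA-Met genes had one. That initiator gene, TRX-CAT1-4, is named here after its value was seen, because its HDGF summit in control cells was the closest of that list, at 190 bp with a fold of 2.86. Windows of neighbouring genes overlap, with 127 loci for 154 genes, so these counts are not independent.

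Counts of distinct peaks were next set against the density of peaks in the same 5 Mb bins, which takes account of the uneven cover of the chromosome. INTS13 after HDGF depletion had 7 distinct peaks at tRNA genes where the bin density gave 7.72, a ratio of 0.907 (interval 0.365 to 1.87). INTS13 in starvation had 1 peak against 0.181, a ratio of 5.53 whose interval of 0.14 to 30.8 leaves no direction. INTS13 in control had 0 against 0.372, which allows a ratio of up to 8.06. HDGF in starvation had 1 against 1.36, a ratio of 0.738 (0.0187 to 4.11). HDGF in control had 16 against 7.16, a ratio of 2.24 (1.28 to 3.63). HDGF in control cells was therefore the single list whose interval lay above 1 at these tRNA genes. Some other classes had an interval above 1 in that list and others did not. The ratio was 1.54 (1.44 to 1.65) at the other genes of at most 200 bp, which lies inside the tRNA interval. It was 1.43 (1.01 to 1.95) at coding genes of the same bins, and 2.73 (2.41 to 3.08) at small nucleolar RNA genes. The interval included 1 at histone genes of chromosome 6 (0.584, 0.0707 to 2.11) and at small nuclear RNA genes (0.766, 0.419 to 1.28). It also included 1 at tRNA genes of other chromosomes (1.22, 0.838 to 1.71).

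This denser HDGF cover in control cells depended on how near the comparison was taken. With bins of 1 Mb the ratio was 1.53 and its interval, 0.879 to 2.5, included 1, as did that without the megabase that held most tRNA genes (1.76, interval 0.761 to 3.47). When the tRNA windows were moved along the chromosome by 20 to 200 kb in each direction, the 20 displaced sets held 4 to 18 HDGF peaks in control cells, with a median of 8, and 1 of the 20 sets held 16 or more. For INTS13 after HDGF depletion the displaced sets held 4 to 13 peaks with a median of 8.5, and 15 of 20 sets held at least the 7 found at the tRNA genes. The displaced sets held 0 to 1 INTS13 peaks in starvation and 0 to 2 in control, and 0 to 5 HDGF peaks in starvation with a median of 2. The sets share stretches of the same region and are a description, not a test.

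**Figure D2:**
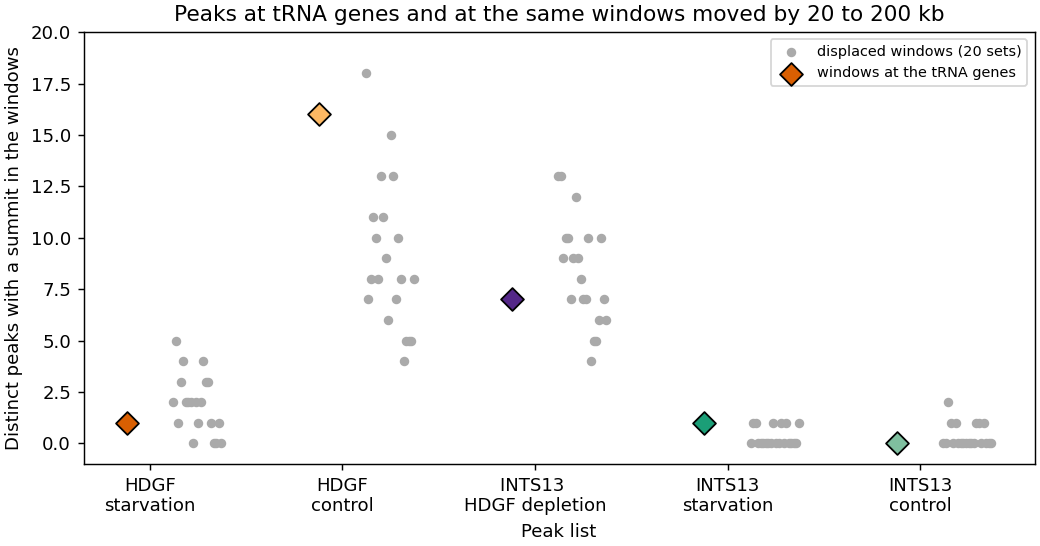
For each of the 5 peak lists on the x axis, the diamond is the number of distinct peaks with a summit within 1 kb of the tRNA genes of chromosome 6, and the grey points are the numbers for the same windows moved by 20 to 200 kb. The HDGF control diamond, at 16, lies above 19 of 20 displaced sets, while the other diamonds lie among theirs.

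With growing distance from the tRNA genes, HDGF summits in control cells were densest from 250 to 1000 bp. Their density was 1.13 per 100 kb from 0 to 250 bp, which rests on 1 summit, 6.98 from 250 to 500 bp on 5 summits and 7.47 from 500 to 1000 bp on 10 summits. It was 5.8 from 1 to 2.5 kb on 20 summits, 3.71 from 2.5 to 5 kb on 14 and 2.14 from 5 to 10 kb on 9, against a bin average of 2.43. The density was thus above the average of the 5 Mb bins out to 5 kb. The region from 26 to 29 Mb as a whole held 35.7 HDGF peaks per Mb in control cells. The density from 2.5 to 5 kb was close to that level and is not a rise particular to the tRNA genes. INTS13 after HDGF depletion had between 1.13 and 3.48 per 100 kb over the same distances, also with 1 summit in the innermost 250 bp, against a bin average of 2.63. Whether reads over near-identical tRNA copies were lost in mapping was not tested.

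**Figure D3:**
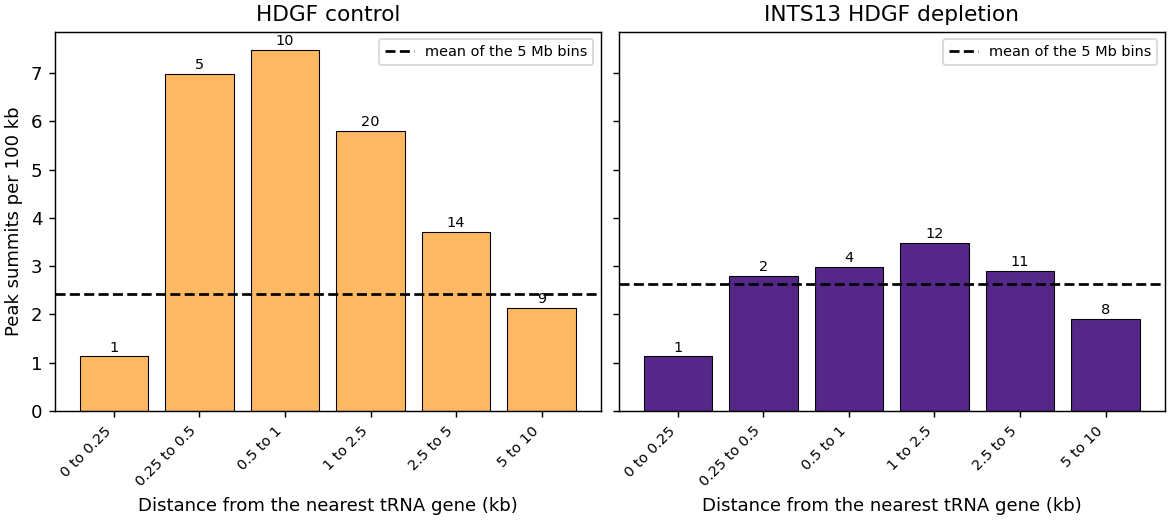
Bars are peak summits per 100 kb (y axis) at growing distance in kb from the nearest tRNA gene of chromosome 6 (x axis), with the number of summits above each bar and the mean of the 5 Mb bins as a dashed line, for INTS13 after HDGF depletion and HDGF in control cells. HDGF in control cells peaks at 7.47 per 100 kb between 500 and 1000 bp and falls to 2.14 at 5 to 10 kb, while INTS13 lies between 1.13 and 3.48 around its dashed line of 2.63, and the innermost bar holds 1 summit in both.

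The histone genes of chromosome 6, which lie in the same stretch, were compared in the same lists. After HDGF depletion INTS13 had a peak at 6 of 154 tRNA genes (3.9%, interval 1.44 to 8.29%) and at 15 of 55 histone genes (27.3%, 16.1 to 41%). The density ratio to the bins was 0.907 at the tRNA genes and 3.66 at the histone genes. The intervals of the shares do not overlap, and both classes come from 1 list and the same region, with no replicate behind the difference. HDGF in control cells had the opposite order, with 15 of 154 tRNA genes (9.74%) against 2 of 55 histone genes (3.64%, 0.443 to 12.5%), and those intervals overlap. Protein-coding genes of the same bins, taken at both gene ends, had an INTS13 peak after HDGF depletion at 49 of 208 genes (23.6%) and an HDGF peak in control cells at 32 of 208 (15.4%). The 9 tRNA pseudogenes of chromosome 6 had no peak in any list.

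The tRNA genes of the other chromosomes were read in the same way. After HDGF depletion an INTS13 peak lay at 3.9% of the chromosome 6 genes (interval 1.44 to 8.29%), against 44 of the 275 others, or 16% (11.9 to 20.9%). The ratio to bin density was 0.907 (0.365 to 1.87) on chromosome 6 and 1.98 (1.45 to 2.63) elsewhere, and these intervals overlap. Of the 44 genes elsewhere, 15 were on chromosome 7, where 15 of 22 tRNA genes had an INTS13 peak in that list. In INTS13 control cells the counts were 0 of 154 on chromosome 6 and 7 of 275 elsewhere, and in INTS13 starvation 1 of 154 and 3 of 275. HDGF in starvation was at 1 of 154 genes on chromosome 6 and at 15 of 275 elsewhere, and HDGF in control at 15 of 154 (9.74%) and 29 of 275 (10.5%). The HDGF ratios to bin density in starvation were 0.738 (0.0187 to 4.11) on chromosome 6 and 0.839 (0.479 to 1.36) elsewhere. In control they were 2.24 (1.28 to 3.63) and 1.22 (0.838 to 1.71), and the intervals overlap in both lists. The highest fold at a tRNA gene after HDGF depletion was 3.46 on chromosome 6 and 7.12 elsewhere, the last at TRG-CCC5-1 on chromosome 1. TRG-CCC5-1 also had the highest fold elsewhere for INTS13 in starvation (4.8) and control (5.13) and for HDGF in starvation (4.96). The next highest fold elsewhere after HDGF depletion was 4.43, at TRR-CCT4-1. Small nuclear RNA genes, a class that holds the textbook targets of Integrator, were taken by biotype alone. Against 0 of 154 chromosome 6 tRNA genes, 25 of these 149 genes (16.8%) had an INTS13 peak in control cells. Their ratio to bin density was 7.49 (4.85 to 11.1). At the chromosome 6 tRNA genes 0 peaks against 0.372 allow a ratio of up to 8.06, so the ratios do not separate the 2 classes.

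**Figure D4:**
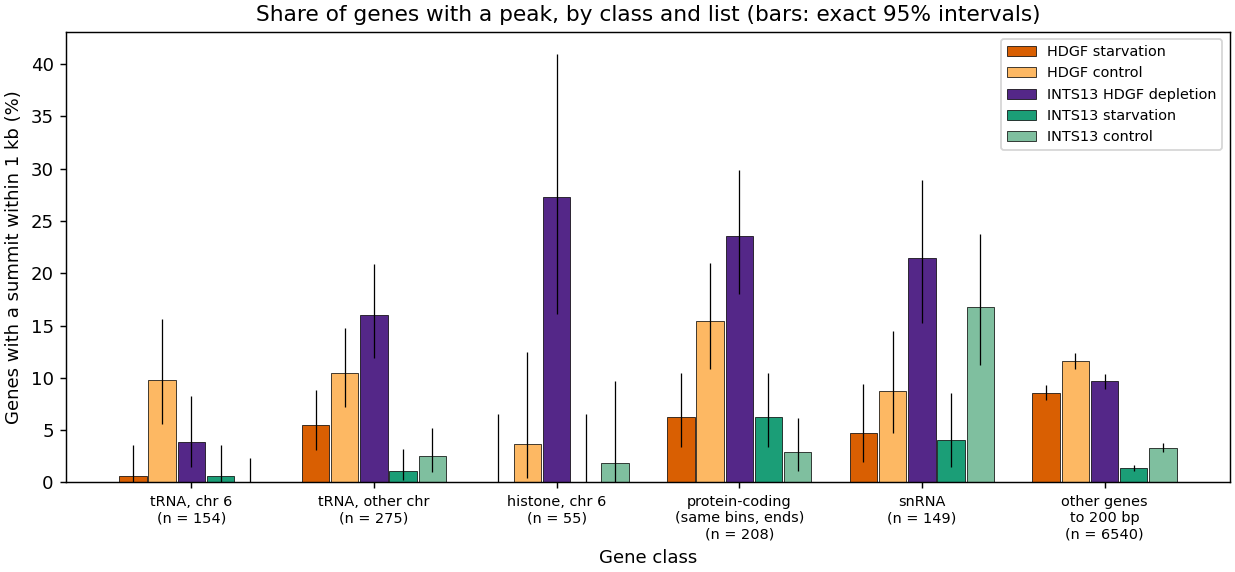
Bars are the percent of genes in each class (x axis) with a peak summit within 1 kb (y axis) in each of the 5 lists, with exact 95% intervals as vertical lines. For INTS13 after HDGF depletion the tRNA genes of chromosome 6 stand at 3.9%, below the 16% of other tRNA genes and the 27.3% of histone genes.

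The protein-coding genes that make, process and export tRNA were read in the same lists at both gene ends. Of 30 genes for RNA polymerase III and its factors, 4 had an INTS13 peak after HDGF depletion, 2 in starvation and 1 in control, and 9 had an HDGF peak in starvation against 7 in control. These are shares of 13.3%, 6.67%, 3.33%, 30% and 23.3%, beside 19.2%, 6.77%, 4.8%, 21.8% and 19.5% of all 19862 protein-coding genes in the same order of lists. Of 39 genes for tRNA processing and export, 11 had an INTS13 peak after HDGF depletion, 2 in starvation and 2 in control, and 11 had an HDGF peak in starvation against 5 in control. In that order the shares are 28.2%, 5.13%, 5.13%, 28.2% and 12.8%, beside the same 19.2%, 6.77%, 4.8%, 21.8% and 19.5% of all protein-coding genes. Of 36 other genes read by RNA polymerase III, among them those of 5S ribosomal RNA, 4, 1 and 1 had an INTS13 peak after HDGF depletion, in starvation and in control, and 3 an HDGF peak in starvation against 5 in control. The first 3 are 11.1%, 2.78% and 2.78% and the HDGF shares 8.33% and 13.9%, beside 9.66%, 1.36%, 3.3%, 8.58% and 11.6% of the other genes of at most 200 bp. The site at RNA5S6 was in 3 lists at nearly the same position, with folds of 5.58 for INTS13 after HDGF depletion, 5.15 for INTS13 in starvation and 5.22 for HDGF in starvation. RNA5S6 is a copy of a repeated 5S gene, and whether its reads can be told apart from those of its neighbours was not tested.

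One of these genes, GTF3C6, lies on chromosome 6 itself and encodes a subunit of TFIIIC, the factor that binds the inner promoter of tRNA genes. It was the 1 gene of the 30 with INTS13 in all 3 lists. In starved cells the INTS13 fold was 6.25 with a summit 33 bp past the start of the gene, and in control cells 5.27 with a summit 61 bp past it. After HDGF depletion the INTS13 summit in this window lay 704 bp before the start, with a fold of 3.08. HDGF in control cells flanked the start, with a fold of 3.77 at 331 bp before it and 3.25 at 579 bp past it. The RefSeq promoter is printed because INTS13 lay on a gene start here and at no tRNA gene of the chromosome in control cells. It spans chr6:110958456-110958755 of GRCh38.p14 on the plus strand, 5′ to 3′, and capitals mark the 115 bases inside the INTS13 control peak.
GTF3C6: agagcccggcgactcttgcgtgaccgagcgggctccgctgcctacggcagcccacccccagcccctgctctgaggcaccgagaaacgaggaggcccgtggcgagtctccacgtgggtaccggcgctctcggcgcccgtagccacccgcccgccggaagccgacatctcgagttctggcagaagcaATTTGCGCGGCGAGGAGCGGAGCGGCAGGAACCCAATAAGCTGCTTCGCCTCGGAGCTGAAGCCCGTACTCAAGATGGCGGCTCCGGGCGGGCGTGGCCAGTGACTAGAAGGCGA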

How the data were processed

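Per the submitters' processing notes, FastQC, Trimmomatic, Bowtie, Picard and MACS2 were used with build hg38; their versions, settings and how replicates were joined: not given in the sources used here. The deposited peak names carry the value 0.05. Each of the 5 deposited lists gives, per peak, positions, an integer score, the authors' fold enrichment (a ratio), −log10 p and −log10 q and a summit offset. These are the authors' values and describe peaks of their own list, and values of several lists are only set side by side; the deposited score was not used further. Reads at a summit and the mean background were recovered from the deposited folds and −log10 p, since each list follows a Poisson law with 1 mean. Depth in total reads is unknown.

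Gene positions came from a RefSeq table of hg38, in which entries of alternate or unplaced sequences were dropped by their order. Summits (start plus offset) within 1 kb of a gene were counted, and expected numbers took the windows at the average density of their 5 Mb bins. Exact binomial and Poisson 95% intervals were computed, and a count of 0 was given a limit of 3 counts. Counts came from Python 3.11.15, NumPy 2.4.6, pandas 2.3.3 and SciPy 1.17.1, with plots from Matplotlib 3.10.9. The calculation was tested on simulated data. Genes named with values are those at the 6 peaks of highest −log10 p in each list, with peaks in 4 or more lists or with INTS13 in all 3 INTS13 lists; other names are marked or serve as comparison. The members and gene lists were chosen with earlier results of these data known. Alternatives were other windows, bins, overlap rules, a stricter −log10 q of 3, lists of equal length and parts of the chromosome left out. Input samples were not analysed here.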

Additional observations from a re-analysis of the deposited data

How the results depend on the processing

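No paired analysis was possible because each group has 1 peak list with no values per replicate, and for the same reason no replicate could be left out. Of 79 alternative values 58 moved by less than their counting interval (1.5 times for a count of genes) and 21 by more. With a window of 500 bp, genes with a peak numbered 3 for INTS13 after HDGF depletion, 0 for INTS13 in starvation and 6 for HDGF in control. The INTS13 starvation ratio was then 0, where the bin density gave 0.0983 peaks. The share of HDGF control genes kept in starvation was 0. With 2500 bp, genes with a peak numbered 18 for INTS13 after HDGF depletion, 2 for HDGF in starvation and 39 for HDGF in control. With a −log10 q of at least 3 they numbered 2 for INTS13 after HDGF depletion, 0 for INTS13 in starvation, 0 for HDGF in starvation (both ratios 0, share kept 0) and 5 for HDGF in control. At that limit the bin density gave 0.00871 peaks for INTS13 in starvation and 0.743 for HDGF in starvation. With every list held to the length of the shortest, counts and ratios were 0 for INTS13 after HDGF depletion, HDGF in starvation and HDGF in control. The bin density then gave only 0.459, 0.00995 and 0.209 peaks in that order, with intervals up to 8.04, 371 and 17.7. These ratios of 0 therefore show no direction. The ratio for HDGF in control lay between 1.53 and 2.47 under the other alternatives. Its interval no longer lay above 1 with bins of 1 Mb (1.53), without the densest 1 Mb (1.76, interval 0.761 to 3.47), with a window of 500 bp (1.54, 0.565 to 3.35) or with a −log10 q of at least 3 (2.47, 0.906 to 5.37). A share kept could not be given for INTS13, with 0 control genes, or for HDGF in lists of equal length. The cause of these moves was not tested. Members near each other share their region and parts of their windows, so the counting intervals may be too narrow.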
